A study of Mus musculus with 9 samples.

Results

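The interferon-gamma induced GTPases described here were 10 genes, Gbp2, Gbp3, Gbp4, Gbp6, Gbp7, Igtp, Iigp1, Irgm1, Irgm2 and Tgtp2, of the 54532 genes in the count table. They were taken from that table by gene name, and the names had been chosen from the results of the comparison between Ant-134 and Scr, so their difference between the groups is given as a description and was not tested. All 10 genes passed the filter on low counts, as did 19782 genes in all. RNA-seq was performed on the hippocampus of N4 Ube3am-/p+ mice, which lack the maternal copy of Ube3a, keep the paternal copy and were bred onto a 129Sv/Ev background. These mice model Angelman syndrome. One group of 5 mice received Ant-134, an antisense oligonucleotide that blocks the microRNA miR-134, and a group of 4 littermates received Scr, an oligonucleotide of scrambled sequence. Both were given at 0.5 nmol into the cerebral ventricle at P21 (postnatal day 21), and all 9 mice then had a sound stimulus that evokes seizures at P22, P24 and P26. The hippocampus on the injected side was collected 24 h after the last stimulus, and each library came from 1 mouse. Sex was not recorded for molecular samples, and no untreated, unstimulated or wild-type library was part of the comparison.

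Interferon-gamma binds a receptor made of Ifngr1 and Ifngr2, the kinases Jak1 and Jak2 carry the signal on, and a wide set of genes is switched on, in part through the induced factor Irf1. Guanylate-binding proteins (GBPs) and immunity-related GTPases (IRGs) are among the most strongly induced of these genes in mouse cells. Both families bind GTP and assemble on the membranes of vacuoles that enclose microbes, and in brain they are made by microglia, astrocytes, endothelial cells and neurons that meet interferon.

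The genes lie in 5 places of the mouse genome (GRCm38). Gbp7 (chr3:142530342-142550149), Gbp3 (chr3:142560026-142573209) and Gbp2 (chr3:142620602-142638008) are in the GBP cluster on the plus strand of chromosome 3. Gbp4 (chr5:105115767-105139586) and Gbp6 (chr5:105270702-105293698) are in the GBP cluster on the minus strand of chromosome 5. Irgm1 (chr11:48861968-48871683) and Tgtp2 (chr11:49057194-49064206) are on the minus strand of chromosome 11, Igtp (chr11:58199556-58207591) and Irgm2 (chr11:58199618-58222782) are on the plus strand of the same chromosome, and Iigp1 is alone on another chromosome.

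The upstream sequence of these genes is shown because interferons act on genes through short elements of this kind of sequence. The motifs searched were the interferon-stimulated response element (ISRE, letters GAAA, then 2 bases of any kind, then GAAA), read by Irf factors, and the gamma-activated site (GAS, letters TTCNNNGAA). Both strands of the 250 bases before the RefSeq transcription start (GRCm38.p6) were searched, and TTCNNNGAA reads alike on both. Promoters of 7 of the 10 genes were analysed, and those of Gbp4, Gbp6 and Iigp1 were not analysed here. The stretches below run 5′ to 3′ on the strand of the gene, with the motif letters in capitals. All 30 bases of the Irgm1 stretch and 27 of the 40 bases of the Gbp2 stretch lie in an exon of the GENCODE annotation, and the Irgm2 stretch lies within the span of that gene but in no exon, since the RefSeq starts differ from those spans.
Igtp, chr11:58199496-58199546, plus strand: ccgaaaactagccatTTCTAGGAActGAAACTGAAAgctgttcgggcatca
Irgm2, chr11:58214887-58214937, plus strand: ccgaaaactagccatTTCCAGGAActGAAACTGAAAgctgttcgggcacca
Tgtp2, chr11:49064258-49064308, minus strand: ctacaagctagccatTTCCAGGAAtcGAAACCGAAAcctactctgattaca
Gbp7, chr3:142530215-142530307, plus strand: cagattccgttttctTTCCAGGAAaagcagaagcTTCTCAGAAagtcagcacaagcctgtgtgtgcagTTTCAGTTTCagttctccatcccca
Gbp2, chr3:142620589-142620628, plus strand: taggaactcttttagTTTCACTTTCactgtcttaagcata
Gbp3, chr3:142559984-142560029, plus strand: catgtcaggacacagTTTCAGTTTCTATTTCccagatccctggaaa
Irgm1, chr11:48871428-48871457, minus strand: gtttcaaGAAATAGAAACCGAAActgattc

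ISRE letters were found before all 7 genes, compared with 2.98% of the 32851 promoters of the same length in the table. GAS letters were found before 4 of them, Gbp7, Igtp, Irgm2 and Tgtp2, compared with 7.02% of all promoters, and both motifs stood together in 0.332% of all promoters. In Igtp, Irgm2 and Tgtp2 the GAS letters stood just before the ISRE letters with 2 bases between them. Of 9 related genes with an analysed promoter, 4 had neither motif and Gbp2b had ISRE letters alone. Gbp5 and Gm12250 had both motifs at other spacings, and Tgtp1 and Gm12185 had both with the same 2 bases between them. The stretches of Igtp and Irgm2 had the same base at 49 of 51 positions, and that of Tgtp2 matched Igtp at 35 positions. In Gbp3 and Irgm1 a pair of ISRE matches overlapped, and a second listed promoter of Gbp3 held neither motif. These matches describe letters in the reference genome and do not show that a factor was bound.

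**Figure D1:**
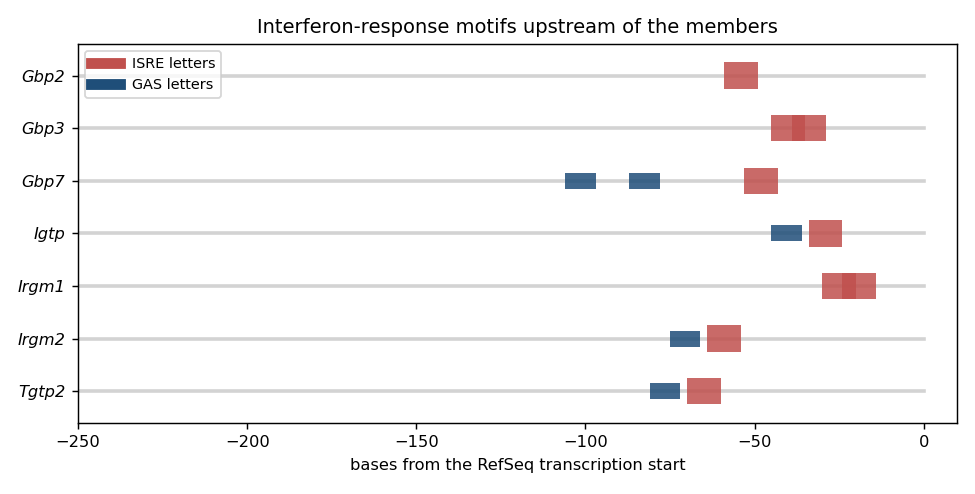
Positions of ISRE letters (red) and GAS letters (blue) in the 250 bases before the RefSeq transcription start, with bases from the start on the x axis and 1 row per gene. Each of the 7 genes has ISRE letters within 70 bases of the start, and the GAS letters of Igtp, Irgm2 and Tgtp2 lie 2 bases before them.

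The deposited counts summed to between 28583298 and 41978113 per library, 28583298 to 38431058 for Ant-134 and 31985959 to 41978113 for Scr, and the 10 genes had between 1 and 818 counts in a library. Levels are given as CPM, the counts of a gene relative to the library total after TMM scaling, and 3 counts, taken as the lowest level that can be read, correspond to between 0.0715 and 0.105 CPM. Markers of hippocampal neurons were present in every library, with a summed level of 5797 to 7062 CPM over 10 genes. A gene is called lower or higher when its unadjusted p value in the quasi-likelihood test of edgeR was below 0.05. The study used the same threshold with another test, DESeq2, which called 622 genes lower and 405 higher. Of all genes tested 2.69% were called lower, 1.49% higher and 4.18% in either direction, and 0 genes had an adjusted p value below 0.05. One library stood apart for these genes. Ant-134 replicate 1 had the highest summed level of the 10 genes of all 9 libraries. The calls of the 10 genes, their relatives and the interferon lists are given with and without it.

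The 10 GTPases had lower mean levels in Ant-134-treated than in Scr-treated mice. The median log2 fold change was -0.65, compared with 0.0026 over all genes tested. Summed over the 10 genes, the level was 105, 46.4, 34.5, 51.6 and 42.8 CPM in Ant-134 replicates 1 to 5, and 82.6, 73.3, 81.8 and 95.0 CPM in Scr replicates 1 to 4. The other 4 Ant-134 libraries thus lay below every Scr library, and replicate 1 lay above every Scr library. Of the 10 genes 4 were called lower, Gbp2, Gbp4, Gbp6 and Tgtp2, against 2.69% of all genes tested. For 1 of them, Tgtp2, every Ant-134 library lay below every Scr library, which held for 0.895% of all genes tested. Since the names had been chosen on this comparison, nothing is read from these counts. In whole tissue, fewer cells of a type and less RNA per cell cannot be told apart.

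**Figure D2:**
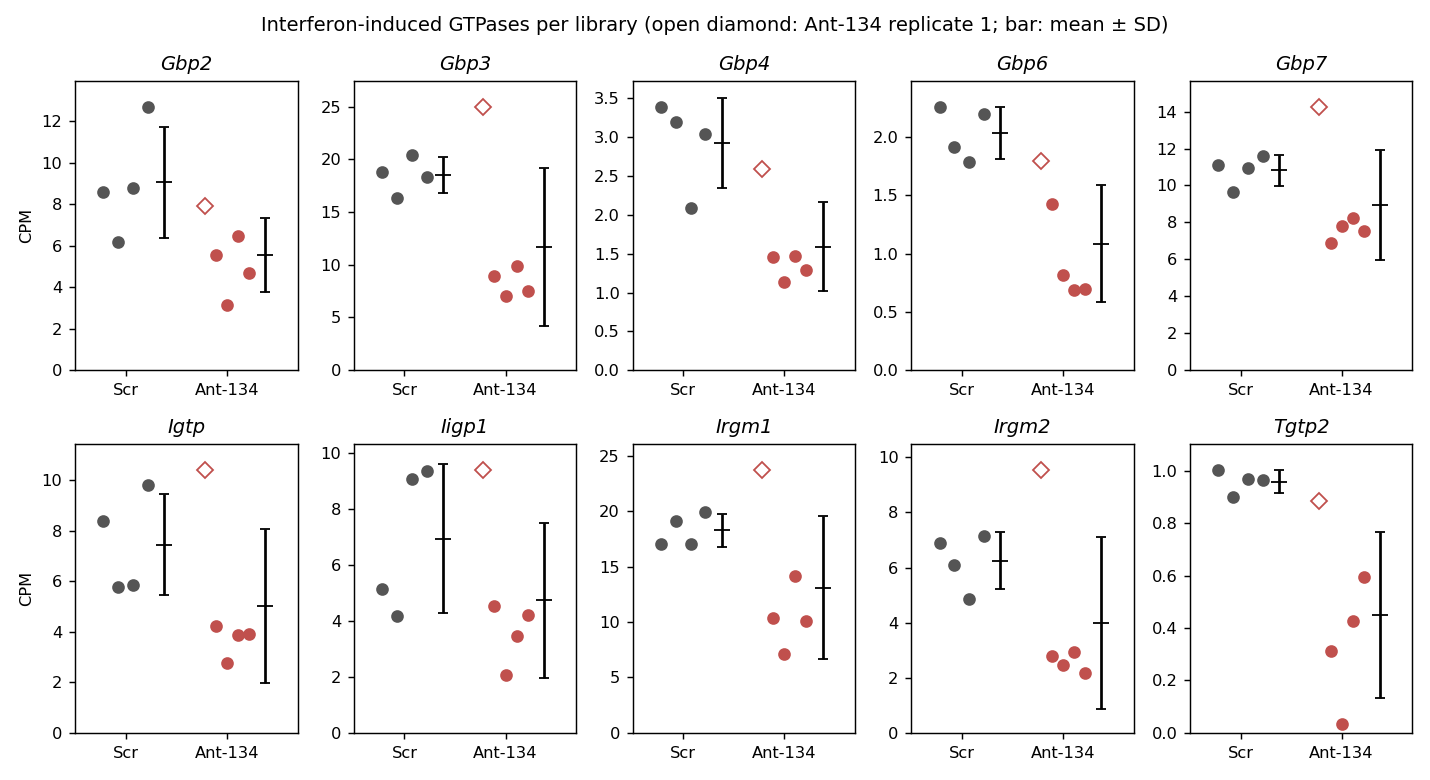
CPM of each GTPase gene (y axis, from 0) in the 4 Scr libraries (grey) and the 5 Ant-134 libraries (red), with the mean ± SD at the right of each group. The open diamond is Ant-134 replicate 1, which is the highest of all 9 libraries for Gbp3, Gbp7, Igtp, Iigp1, Irgm1 and Irgm2, and the filled red points lie below every Scr point for 8 of the 10 genes.

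The GBPs are large GTPases that build coats on the vacuoles of parasites and bacteria. Gbp2, a lipid-anchored member that reaches these vacuoles early, was at 7.92, 5.54, 3.17, 6.45 and 4.70 CPM in Ant-134 replicates 1 to 5 and at 8.59, 6.17, 8.80 and 12.7 CPM in Scr replicates 1 to 4. Of the Ant-134 libraries 3 were below the lowest Scr library, and the log2 fold change was -0.70 ± 0.27 (SE). Gbp3 was at 24.9, 8.89, 7.05, 9.92 and 7.54 CPM in Ant-134 and at 18.8, 16.3, 20.4 and 18.4 CPM in Scr. Apart from replicate 1 the Ant-134 libraries were far below the Scr libraries, and with it the log2 fold change was -0.66 ± 0.39. Gbp7, which acts in the oxidative killing of microbes, was at 14.2, 6.89, 7.83, 8.22 and 7.54 CPM in Ant-134 and at 11.1, 9.65, 10.9 and 11.6 CPM in Scr. Its log2 fold change of -0.27 ± 0.19 was the one nearest to 0 among the 10 genes, and again replicate 1 was the one Ant-134 library above the lowest Scr library. Of the exon bases of Gbp7, 11.3% overlap the processed pseudogene Gm43802 on the same strand.

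Gbp4 and Gbp6 are in the chromosome 5 cluster and were expressed at lower levels. Gbp4 was at 2.59, 1.46, 1.14, 1.47 and 1.29 CPM in Ant-134 and at 3.38, 3.19, 2.08 and 3.05 CPM in Scr. Gbp6 had 59, 55, 23, 21 and 21 counts in Ant-134, with a mean of 1.09 ± 0.502 CPM (SD, n = 5), and 72, 81, 61 and 75 counts in Scr, with a mean of 2.04 ± 0.224 CPM (n = 4). On the CPM scale, for both genes 4 of the 5 Ant-134 libraries were below every Scr library and replicate 1 was within the Scr range. The log2 fold changes were -0.87 ± 0.23 for Gbp4 and -0.89 ± 0.27 for Gbp6. Gbp6 cannot be fully separated from its copies, since 29.0% of its exon bases overlap Gm43302 on the same strand and 43.4% of the 150-base windows of its longest transcript occur in Gm43302 or Gbp10.

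The effector IRGs disrupt the vacuole membrane once loaded onto it. Iigp1 was at 9.38, 4.55, 2.06, 3.47 and 4.20 CPM in Ant-134 and at 5.14, 4.16, 9.06 and 9.34 CPM in Scr. The groups overlapped more than for the other genes, with only 2 Ant-134 libraries below the lowest Scr library, and the log2 fold change was -0.54 ± 0.44. Tgtp2, also called Irgb6, had 29, 12, 1, 13 and 18 counts in Ant-134 and 32, 38, 33 and 33 counts in Scr. These counts correspond to 0.884, 0.312, 0.036, 0.426 and 0.596 CPM in Ant-134 and 1.00, 0.898, 0.968 and 0.967 CPM in Scr. The lowest library, Ant-134 replicate 3, was below the 3 counts that can be read, while the Scr libraries lay close together. The log2 fold change of Tgtp2 was -1.07 ± 0.44, and it is uncertain in another way, since 71.7% of the 150-base windows of its transcript also occur in Tgtp1.

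The regulatory IRGs keep the effectors inactive on the membranes of the cell itself and protect these from attack. Irgm1 was at 23.7, 10.3, 7.15, 14.2 and 10.1 CPM in Ant-134 and at 17.0, 19.2, 17.0 and 19.9 CPM in Scr. Irgm2 was at 9.54, 2.78, 2.46, 2.95 and 2.18 CPM in Ant-134 and at 6.89, 6.10, 4.87 and 7.15 CPM in Scr. Igtp, also called Irgm3, was at 10.4, 4.21, 2.78, 3.86 and 3.90 CPM in Ant-134 and at 8.37, 5.77, 5.84 and 9.81 CPM in Scr. All 3 regulators had the same pattern, in which replicate 1 was the highest of the 9 libraries and the other 4 Ant-134 libraries were below every Scr library. Their log2 fold changes were -0.48 ± 0.32, -0.65 ± 0.46 and -0.56 ± 0.39. Igtp and Irgm2 share 162 exon bases on the same strand, so that reads there cannot be told apart.

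**Figure D3:**
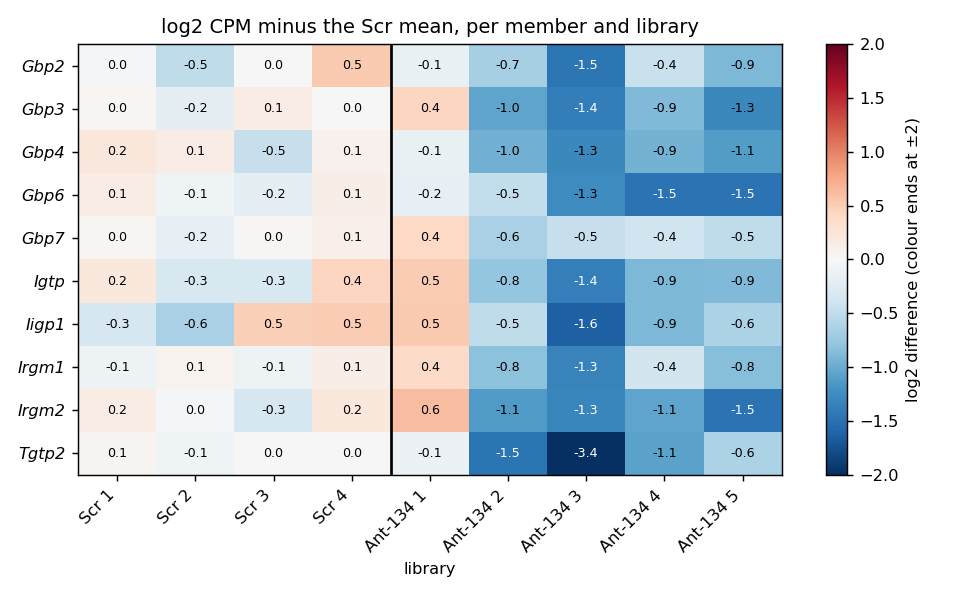
The log2 CPM of each GTPase gene minus its Scr mean, in 10 rows of genes and 9 columns of libraries, where blue is below and red above the Scr mean and the colour scale ends at ±2. The column of Ant-134 replicate 1 has a median of 0.39, while those of replicates 2 to 5 have medians between -1.35 and -0.80.

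Mice of the Ant-134 group differed widely from each other. The median of the 10 genes stood at 1.31 times the Scr mean in Ant-134 replicate 1, and at 0.576, 0.391, 0.536 and 0.540 times in replicates 2 to 5. Compared with the lowest Scr library, 1 gene was lower in replicate 1, 9 genes each in replicates 2, 4 and 5, and 10 genes in replicate 3. In the Scr libraries the median stayed between 0.917 and 1.09 times the Scr mean. In replicate 1 the genes parted, with a median log2 deviation of -0.15 for the 5 GBPs and 0.52 for the 5 IRGs, and both families had members on each side of the Scr mean. Gbp3, Gbp7, Igtp, Iigp1, Irgm1 and Irgm2 were above the Scr mean by 0.38 to 0.62 on the log2 scale, and Gbp2, Gbp4, Gbp6 and Tgtp2 were below it, with values from -0.17 to -0.11. In the other Ant-134 libraries all 10 genes were below the Scr mean.

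Without Ant-134 replicate 1 the median log2 fold change of the 10 genes was -1.06, with values from -1.47 for Tgtp2 to -0.51 for Gbp7. All 10 genes were then called lower, beside 3.60% of all genes tested in that comparison. Nothing is read from this count, since the names came from the same contrast and the library left out is the one that was high. With other single libraries left out the median lay between -0.72 and -0.52. Scr replicate 4 had the highest Gbp2, Igtp and summed level of the Scr libraries. Without it 2 of the 10 genes were called lower, beside 587 genes in all. With all libraries the standard errors of Irgm2, Iigp1 and Tgtp2 were 0.46, 0.44 and 0.44, and without replicate 1 they were 0.16, 0.32 and 0.42.

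**Figure D4:**
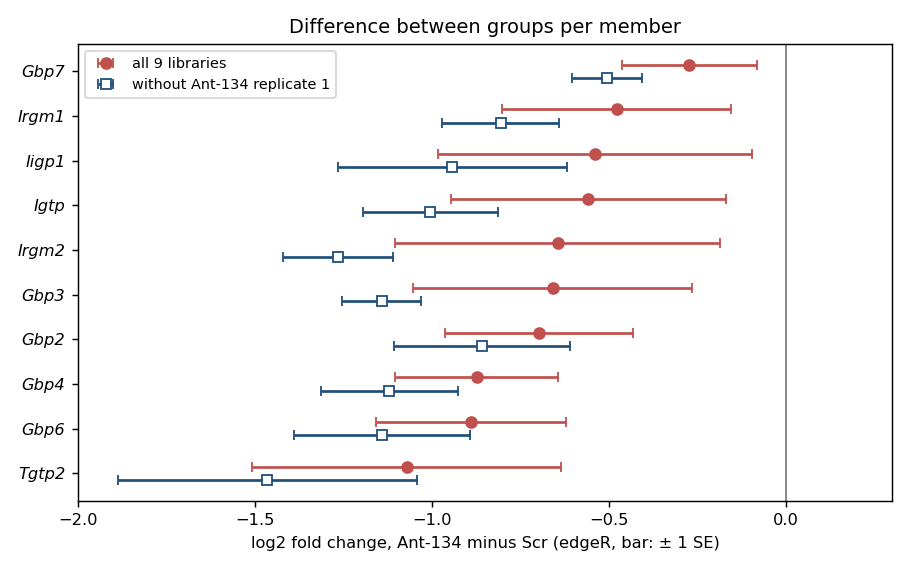
Log2 fold change of Ant-134 against Scr (x axis, edgeR, bars ± 1 SE) for the 10 GTPase genes, with all 9 libraries (red circles) and without Ant-134 replicate 1 (blue squares). The median moves from -0.65 to -1.06, and all values are below 0 in both sets.

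Compared per length, the genes differed in level. In Scr libraries the deposited FPKM was 5.60 ± 0.524 (SD, n = 4) for Gbp3, 3.64 ± 0.978 for Igtp, 3.56 ± 1.06 for Gbp2 and 3.11 ± 0.246 for Irgm1. It was 2.20 ± 0.844 for Iigp1, 1.91 ± 0.150 for Gbp7 and 1.68 ± 0.277 for Irgm2. The lowest levels were 0.386 ± 0.0767 for Gbp4, 0.339 ± 0.0378 for Gbp6 and 0.323 ± 0.0156 for Tgtp2. In this order, neighbours overlapped in their Scr libraries except at 2 steps, from Gbp3 to Igtp and from Irgm2 to Gbp4. Gbp3 was above 61.2% of all genes tested by mean FPKM, and Tgtp2 was above 12.3%, so the family was of moderate to low abundance in hippocampus.

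The share of each gene within the family was also compared. Gbp3 made up 22.7 ± 2.46% (SD, n = 5) of the summed FPKM of the 10 genes in Ant-134 and 24.9 ± 2.90% (n = 4) in Scr. Irgm1 made up 14.8 ± 1.67% and 13.9 ± 2.12%, and Igtp 15.9 ± 1.46% and 15.9 ± 2.59%. Gbp2 made up 15.3 ± 3.05% and 15.4 ± 2.46%, Iigp1 9.75 ± 1.96% and 9.49 ± 2.92%, and Irgm2 6.61 ± 1.52% and 7.42 ± 1.21%. For these 6 genes the difference between the mean shares was below both SDs. This rests in part on Ant-134 replicate 1, where Gbp3 made up 26.3%, Irgm2 8.89% and Gbp2 10.8%. In the other Ant-134 libraries Gbp3 made up 19.9 to 23.9%, Irgm2 5.09 to 7.36% and Gbp2 13.9 to 18.6%. Gbp4 made up 1.46 ± 0.179% and 1.73 ± 0.441%, Gbp6 1.3 ± 0.43% and 1.5 ± 0.18%, and Tgtp2 0.959 ± 0.576% and 1.44 ± 0.155%, each lower in Ant-134 by more than the smaller of the SDs. Gbp7, the gene with the least change in level, made up 11.2 ± 2.60% in Ant-134 and 8.44 ± 0.545% in Scr.

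The genes varied together between mice of the same group, a measure in which the group means had been removed. Over the 9 libraries the Pearson correlation of log2 CPM was positive for all 45 pairs, with a median of 0.74 and a range from 0.33 for Gbp6 and Tgtp2 to 0.93 for Gbp3 and Gbp7. These values rest in large part on Ant-134 replicates 1 and 3, the highest and the lowest library. The correlation of a gene with the mean of the other 9 was between 0.68 and 0.95, and without these 2 libraries it was between -0.52 for Tgtp2 and 0.86 for Igtp. Within the Scr group 33 of the 45 pairs were positive, with a median of 0.43 over 4 libraries. The points share their library and its scaling, so the values are descriptions.

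The within-group pattern of 16017 other genes with a mean of at least 1 CPM, relatives included, was compared with the mean of the 10. Most like it were Ifit1 (r = 0.97, rho = 0.83), Oas1b (0.97, 0.93), Ifit2 (0.97, 0.82), Ppp2r3c (0.97, 0.80) and Pld1 (0.96, 0.67). They were followed by Dock5 (0.96, 0.80), Nudt7 (0.96, 0.77), Ifit3 (0.96, 0.70), Samd9l (0.95, 0.83) and Ttc23 (0.95, 0.57). Ifit1, Ifit2 and Ifit3 bind foreign RNA and Oas1b belongs to the oligoadenylate synthetases that sense double-stranded RNA, and all are classical type I interferon genes. The median correlation over all 16017 genes was -0.0010, and 0.306% of them reached 0.9. Without Ant-134 replicates 1 and 3 the 10 correlations fell to between 0.18 and 0.80.

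Of 18 further GBP and IRG genes that the table holds, 14 could be tested, and all 14 fold changes were below 0, with a median of -0.60. Of these, 3 were called lower, against 2.69% of all genes tested, and 0 higher in the edgeR test. Gbp5, which promotes inflammasome assembly, was at 4.63, 2.73, 2.92, 3.18 and 3.61 CPM in Ant-134 and at 6.08, 3.83, 8.10 and 6.09 CPM in Scr, with a log2 fold change of -0.82 ± 0.20 (edgeR unadjusted p = 0.00142, adjusted p = 0.897). Gbp9 was called lower with -0.69 ± 0.18 and Gbp10 with -1.37 ± 0.50, the latter at 0.0356 to 0.426 CPM in Ant-134 and 0.260 to 1.38 CPM in Scr. For Gbp5 and Gbp9 4 of 5 Ant-134 libraries were below every Scr library, and for Gbp10 1 was. Gbp2b, the most abundant of these relatives, had a log2 fold change of -0.59 ± 0.27 and was not called. Gbp10 cannot be fully separated from Gbp6, since 43.4% of the 150-base windows of the longest Gbp6 transcript occur in Gm43302 or Gbp10. Without Ant-134 replicate 1, 7 of 13 tested relatives were called lower. This list and the gene lists below were chosen with earlier results of these data known. Their calls and p values are therefore given as descriptions.

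Of 13 tested genes that carry or restrain the interferon-gamma signal 1 was called lower and 0 higher. Of all genes tested 2.69% were called lower. The median log2 fold change of the 13 was 0.0048. The receptor chains Ifngr1 and Ifngr2 had log2 fold changes of 0.09 ± 0.10 and 0.02 ± 0.05, and the kinases Jak1 and Jak2 had 0.04 ± 0.06 and 0.03 ± 0.06. Irf1, the factor that carries the response on, was called lower with -0.28 ± 0.13 and was at 7.58 to 11.9 CPM in Ant-134 and 10.3 to 13.7 CPM in Scr. This call was lost with DESeq2's size factors, with limma on FPKM and without Ant-134 replicate 3 or Scr replicate 2. Ptpn11, a phosphatase that restrains the signal and the most abundant gene of the list, was at 0.0048 ± 0.041 and is itself the median gene. Ifng, the gene of the cytokine itself, had 1 count in each of Scr replicates 2 and 3 and 0 in the other 7 libraries, which is at or under the floor of 3 counts. Without Ant-134 replicate 1, the library highest for the GTPases, 4 of the 13 genes were called lower, against 3.60% of all genes tested.

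Of 24 other targets of interferon-gamma 6 were called lower, against 2.69% of all genes tested, and 0 higher. Of the 24 fold changes 23 were below 0, and the median was -0.31. Cxcl9, a chemokine that attracts T cells and is made mainly under interferon-gamma, had 9, 12, 0, 5 and 5 counts in Ant-134 and 39, 58, 40 and 38 counts in Scr. Every Ant-134 library was below every Scr library, including replicate 1, and the log2 fold change was -2.66 ± 0.40 (edgeR adjusted p = 0.0974). Serping1, an inhibitor of complement C1, also had no overlap between the groups, with -0.46 ± 0.13. Such a separation held for 0.895% of all genes tested. Psmb8 and Psme2, parts of the immunoproteasome and its activator, were called lower with -0.56 ± 0.17 and -0.24 ± 0.10. B2m, the light chain of MHC class I and the most abundant gene of the list, was called lower with -0.61 ± 0.25, and Nlrc5, which drives MHC class I genes, with -0.79 ± 0.34. Without Ant-134 replicate 1, the library highest for the GTPases, 14 of the 24 were called lower, against 3.60% of all genes tested.

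In Ant-134 replicate 1 Cxcl9 was unlike most of the GTPases. It was at 0.274 CPM in that library, within the 0 to 0.312 CPM of the other Ant-134 libraries and below the lowest Scr library at 1.11 CPM, while 6 of the 10 GTPases were highest there. Of the other GTPases, Tgtp2 was also below its lowest Scr library, and Gbp2, Gbp4 and Gbp6 were below their Scr means. This difference was seen in 1 library and was not tested.

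Type I interferons signal through another receptor and induce an overlapping set of genes. Of 23 genes of that response 0 were called with edgeR, 1 with DESeq2, and the median log2 fold change was -0.32, with 22 of 23 below 0. Ifit3, the most abundant gene of this list by FPKM, was at 53.0 CPM in Ant-134 replicate 1, at 9.22 to 17.7 CPM in the other 4 Ant-134 libraries and at 25.9, 21.8, 27.0 and 24.6 CPM in Scr. Replicate 1 was again the highest library and the other 4 Ant-134 libraries were below every Scr library. Ifit1 and Ifit2, which were more like the GTPases within groups, had log2 fold changes of -0.33 ± 0.56 and -0.0024 ± 0.20, and for Ifit2 1 Ant-134 library was below every Scr library. Without Ant-134 replicate 1, 18 of the 23 genes were called lower with a median of -0.89. Of all genes tested 3.60% were then called lower, and the library left out is the one where Ifit3 and the GTPases were highest. The type I genes had a median within-group correlation of 0.88 with the mean of the 10 GTPases, compared with 0.55 for 21 other interferon-gamma targets and 0.12 for 12 signalling genes. Without Ant-134 replicates 1 and 3 these medians were 0.29, 0.17 and 0.22, so the first 2 rest on these libraries and the order of targets and signalling genes turned.

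**Figure D5:**
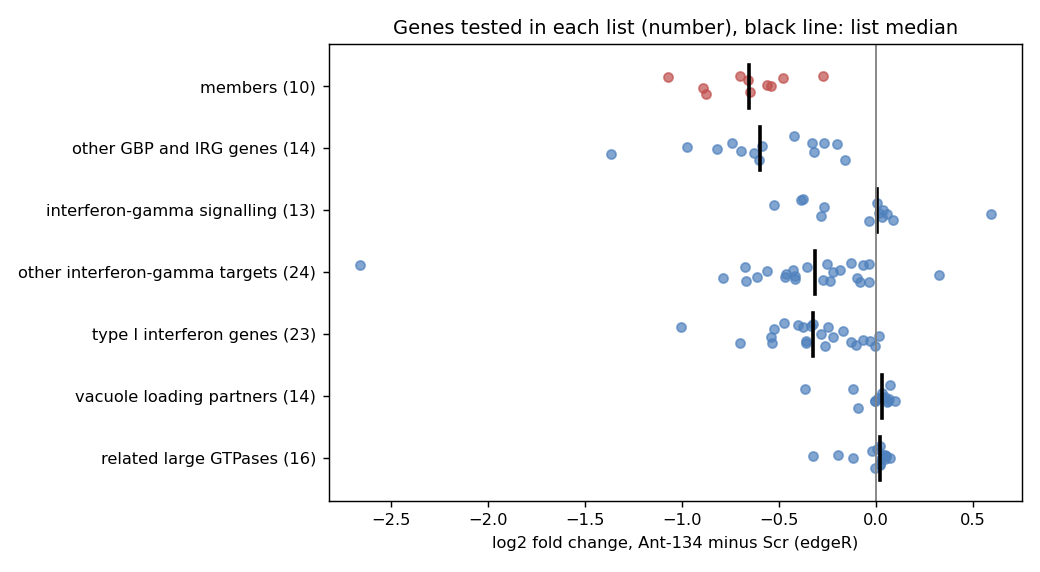
Log2 fold change of Ant-134 against Scr (x axis, edgeR) for the genes tested in 7 lists, with the number tested in parentheses and the list median as a black line. The medians are -0.65 for the 10 GTPases, -0.60 for their relatives, -0.31 for other interferon-gamma targets and -0.32 for type I interferon genes, and they are within 0.04 of 0 for the signalling, vacuole loading and related GTPase lists.

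The ubiquitin-like conjugation system of autophagy, together with ubiquitin ligases and adaptors, loads IRGs and GBPs onto vacuoles, and of 14 such genes 1 was called lower and 0 higher, with a median of 0.034. The called gene was Atg7, the enzyme that starts the conjugation, at -0.11 ± 0.054, a call that was lost with DESeq2, with its size factors in edgeR, with the replicate block and without Ant-134 replicate 2 or 3 or Scr replicate 3 or 4, and the most abundant gene was Gabarapl1 at 0.067 ± 0.045. Trim21, a ubiquitin ligase picked after its values were seen, was not called at -0.37 ± 0.20, and was called lower without Ant-134 replicate 1 at -0.59 ± 0.15. Of 16 related large GTPases of the dynamin, atlastin, mitofusin, Miro and EHD groups 2 were called lower and 0 higher, with a median of 0.023. These were Ehd2 at -0.32 ± 0.099 and Ehd4 at -0.19 ± 0.074, which shape the plasma membrane and endosomes. The most abundant, Dnm1, the dynamin of synaptic vesicle recycling, was at 0.026 ± 0.047. The share called lower over all genes tested was 2.69%, and 3.60% without Ant-134 replicate 1.

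Neighbouring genes were examined for a change of whole regions. Within 300000 bases of the 5 places, 35 genes outside the families were tested and 0 were called in either direction by edgeR at an unadjusted p below 0.05, compared with 4.18% of all genes tested. Their median log2 fold change was -0.0015.

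Since Ant-134 blocks miR-134, the GTPase transcripts were searched for its sites. The mature sequence is given with its seed in capitals, and a site was the letters CAGTCAC, the complement of that seed, in the longest annotated 3′ UTR.
mmu-miR-134-5p: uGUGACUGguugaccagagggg
Gbp2 had 1 site and Gbp4 and Gbp6 had 2 each, in 3′ UTRs of 4066 and 3919 bases for the latter pair, where the median gene had 1332 bases, so that 3 of the 10 genes had a site, compared with 12.8% of 15308 tested genes with an annotated 3′ UTR. The 3 genes with a site had log2 fold changes of -0.70, -0.87 and -0.89, and the 7 without had values from -1.07 to -0.27.

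Markers of other cells were measured in the same libraries. Of 10 microglial markers 4 were called lower, against 2.69% of all genes tested, and 0 higher, with a median log2 fold change of -0.20. The summed level of these markers was 280 to 345 CPM in Ant-134 and 342 to 398 CPM in Scr. Ant-134 replicate 1, where the GTPases were highest, had 300 CPM of microglial markers, below every Scr library. Of 15 T and NK cell markers 1 passed the filter, Cd4, with a log2 fold change of 0.028 ± 0.43 that was not called. Their summed level was 0.890 to 1.79 CPM in Ant-134 and 1.38 to 2.69 CPM in Scr, 9 of the 15 were at 0 in at least 1 library, and none was at 0 in all.

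Of 8 meningeal fibroblast markers 6 were called lower, against 2.69% of all genes tested, with a median of -0.46. Their sums were 162 to 223 CPM in Ant-134 and 205 to 250 CPM in Scr. Of 8 border macrophage markers 2 were called lower, with a median of -0.020. The medians were -0.13 for 10 endothelial markers, -0.023 for 8 astrocyte markers and 0.090 for 10 neuron markers, of which 0, 0 and 1 were called, the last one higher. Choroid plexus markers varied widely between libraries, and Ant-134 replicate 1 had the highest sum at 2592 CPM, followed by Scr replicate 3 at 2035 CPM and Scr replicate 2 at 1081 CPM. Their median log2 fold change was -0.066 with all libraries, with 4 of 8 below 0. Without Ant-134 replicate 1 it was -1.30, with all 8 below 0 and 1 called lower, against 3.60% of all genes tested. The summed GTPase level in these 2 Scr libraries was 81.8 and 73.3 CPM, within or at the edge of the Scr range. Of 6 erythrocyte markers 1 was called lower and 0 higher, while the median was 0.81. Their sum reached 403 CPM in Ant-134 replicate 3, the library with the lowest GTPase sum. The part of these cells in the difference of the GTPases was not tested.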

How the data were processed

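Hippocampal RNA of 9 N4 mice, 5 given Ant-134 and 4 given Scr, was sequenced by the authors as poly-A selected, paired 150-base reads. The submitters' processing notes name CASAVA 1.8, HISAT2 2.0.5, featureCounts 1.5.0-p3 and the genome build mm10 (GRCm38). The authors deposited raw counts per gene, without normalization, and FPKM values, scaled by them for the length of each gene and the library total. The deposited FPKM equalled the value computed from the counts within a factor of 0.978 to 1.007 per library. How reads that map to several genes were counted is not given in the sources used here, and the mice carry a 129 genome while the reference is C57BL/6.

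edgeR 4.0.16, run in R 4.3.3, was applied to the counts (filterByExpr with a minimum count of 10, TMM, robust quasi-likelihood test, no covariate), and p values were adjusted by Benjamini-Hochberg over the 19782 genes tested. The log2 CPM used a prior count of 2. The common biological coefficient of variation was 11.9%. The test was checked on simulated data. Each pair of libraries within a group differed beyond sampling noise, with 8.37 to 20.6 as the chi-square for each gene. The floor of 3 counts covers counting error only.

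The 10 genes and all gene lists were chosen with earlier results of these data known. The genes named in the text are the 10 GTPases, the genes of the interferon, family, vacuole loading and related GTPase lists that were called or most abundant, the genes Ifng, Ifngr1, Ifngr2, Jak1, Jak2 and Irf1, and the 10 genes most like the GTPases within groups. One further gene of this rule is not reported here. Cd4, Trim21 and the relatives named for their promoter or for shared sequence fall outside it, and they were picked once their values had been seen. Libraries of the same replicate number did not deviate together (r = -0.115 to 0.0120), so the numbers were not taken as pairs. Alternatives were DESeq2 1.42.0, other scaling and filters, a replicate block, limma 3.58.1 with a pseudocount of 1 or 0.1 added to FPKM before log2, and leaving out each library. Exon overlaps, repeated 150-base windows and 3′ UTRs came from the GRCm38 annotation, and promoters and the microRNA from RefSeq (GRCm38.p6).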

Additional observations from a re-analysis of the deposited data

Results flagged for a closer look

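In groups of 4 or 5 libraries, 13 of 100 groups of values had 1 library far from the others by Dixon's test at the 95% level. Chance alone gives about 1 in 20, which is 5 of 100, and the values are not independent, since most belong to the same library. In Ant-134 replicate 1 these were the levels of Gbp3 (24.9 CPM), Gbp4 (2.59), Gbp7 (14.2), Igtp (10.4) and Irgm2 (9.54), where the nearest Ant-134 library was at 9.92, 1.47, 8.22, 4.21 and 2.95 CPM. In the same library Nlrc5 was at 5.67 CPM and Ifit3 at 53.0 CPM, with the nearest at 2.49 and 17.7 CPM. The sums of the other interferon-gamma targets (560 CPM, nearest 388), of the type I interferon genes (605 CPM, nearest 358) and of the choroid plexus markers (2592 CPM, nearest 685) were also far above the rest in that library.

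In Ant-134 replicate 3 the erythrocyte markers summed to 403 CPM, with the nearest at 116 CPM. In Scr replicate 4 the T and NK cell markers summed to 2.69 CPM, with the nearest at 1.54 CPM. In Scr replicate 2 Atg7 was at 28.2 CPM, below the 30.1 to 30.4 CPM of the other Scr libraries.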

How the results depend on the processing

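The median log2 fold change of the 10 GTPases was negative in all 18 alternatives, from -1.06 without Ant-134 replicate 1 to -0.39 with limma on log2(FPKM + 1), where the pseudocount shrinks low genes. All 179 values of single GTPases were negative, and 4 moved by over 1 within-group SD of the gene. These were Gbp4 to -0.20 and Gbp6 to -0.18 with limma on log2(FPKM + 1), with and without the filter. Tgtp2 moved further, from -1.07 to -0.20 in the same settings, but its SD was 0.96. Irgm2 moved from -0.65 to -1.27 without Ant-134 replicate 1, with an SD of 0.66. With the replicate block the median was -0.68, 3 type I interferon genes and 0 vacuole loading genes were called, and no other count moved by over 1.5 times, the numbers being no sign of pairing. The number of GTPases called lower was 2 to 10 with 1 library left out, 2 without Scr replicate 4 and 10 without Ant-134 replicate 1. In these 2 settings 587 and 704 genes were called lower in all, the latter 3.60% of those tested. Since the names came from this contrast, nothing is read from these numbers. With 1 library left out, the calls were 0 to 4 for signalling genes, 3 to 14 for other interferon-gamma targets, 0 to 18 for type I genes, 2 to 7 for GBP and IRG relatives, 0 to 3 for vacuole loading genes and 1 to 3 for related GTPases. The highest values for signalling genes, targets, type I genes and relatives came without Ant-134 replicate 1, and the lowest for the targets came without Ant-134 replicate 3 or Scr replicate 4. Genes called higher were 194 to 386 with 1 library left out, the lowest without Scr replicate 3. DESeq2 called 1 type I gene and 0 vacuole loading genes, its size factors in edgeR gave 0 signalling and 0 vacuole loading genes, and edgeR without robust estimation gave 1 type I gene. Without a filter, 1211 genes were lower and 564 higher, with 2 signalling and 2 vacuole loading genes. With limma on log2(FPKM + 1), 462 genes were higher, with 0 signalling and 2 type I genes, and on log2(FPKM + 0.1) 475 were higher, with 0 and 2. On all genes limma gave 981 lower and 580 higher, with 0 signalling, 1 type I and 2 vacuole loading genes. The cause of these shifts was not tested. The lists hold few genes, so that 1 gene near the threshold moves a count. Among the 10 GTPases depth limits Tgtp2 most, with 1 to 38 counts per library, and PCR duplicates cannot be told apart.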
